A study of Spirodela polyrhiza with 16 samples.

Results

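The genes described here are homologs of cuticle, wax and lipid-transfer genes in the giant duckweed Spirodela polyrhiza, a small floating plant with a leaf-like frond above and thin roots in the water. The 78 genes, of 20389 in the deposited table, were chosen by name. Their closest Swiss-Prot homolog is a GDSL esterase (39 genes), a glycerol-3-phosphate acyltransferase (22), a 3-ketoacyl-CoA synthase (7), a lipid-transfer protein (5) or an ECERIFERUM protein (2), and 3 more were named by identifier. Those 3, and 1 of the lipid-transfer proteins, were singled out with measured levels of these data in view, and which levels served is not stated. Their values are therefore given without a test in every comparison. Names are those of the closest homolog, and the duckweed genes may differ in function.

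Plants of clone 9509 were kept in 250 ml flasks (100 ml of medium), with fresh medium given on day 10. A day later, on day 11, roots and fronds from 1 flask were taken apart, and each such pool was 1 biological replicate per the labels' protocols. The 4 groups of 4 RNA libraries were roots without phosphate (replacement medium without KH2PO4), roots in control medium, fronds without phosphate and fronds in control medium. All 16 libraries came from 1 clone and from polyadenylated RNA.

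The cuticle is the waxy skin of the plant's aerial surfaces. Its frame is cutin, a polyester of hydroxylated fatty acids and glycerol, and its waxes derive from very-long-chain fatty acids made by ketoacyl-CoA synthases and their partner enzymes. Roots make a related polyester, suberin, in the walls of inner and outer barrier cells. Glycerol-3-phosphate acyltransferases supply the building blocks of both polyesters, GDSL esterases include the enzymes that link cutin, and ABC transporters and lipid-transfer proteins carry lipids out of the cell. Some acyltransferases instead make membrane lipids, and the names alone do not separate every case.

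Levels are FPKM, a read count scaled to coding length and library size, as deposited. Of the 78 genes, 67 averaged 0.5 FPKM or more across all libraries, and 63 of these, all but the 4 named by identifier, were tested. The 11 below that were GDSL esterases, 3 of them with no read in any library. Changes are differences of mean log2(FPKM + 1) ± standard error (SE), and a gene was called at a Benjamini-Hochberg adjusted p under 0.05 in a limma fit over 16598 genes. Whole reads behind the values summed to between 6325297 and 12437151 per library, so that 3 reads over 1 kb of coding length were worth 0.213 to 0.507 FPKM.

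The tissue labels were set against marker genes matched by homolog name. A list of 25 genes named for root regulators, many of them Scarecrow-like proteins, differed little, summing to 342 to 378 FPKM in roots without phosphate and 366 to 406 FPKM in control roots, against 302 to 325 FPKM in fronds without phosphate and 310 to 329 FPKM in control fronds. One of its genes, the only one given by library here, set the tissues clearly apart, which the list as a whole did not. The Casparian strip membrane protein 1 homolog Sp04g00111, a marker of root endodermis, had 41.4, 54.6, 26.6 and 22.4 FPKM in roots without phosphate and 35.1, 67.8, 53.0 and 51.2 FPKM in control roots, against 1.73 to 3.85 FPKM in the 8 frond libraries. The summed level of 10 chlorophyll-binding and Rubisco small-subunit genes was 9242 to 16188 FPKM in roots without phosphate and 12216 to 18707 FPKM in control roots, against 30777 to 36218 FPKM in fronds without phosphate and 36184 to 40527 FPKM in control fronds. The root libraries thus held photosynthetic transcripts too. A list of 12 epidermal regulators, without the cuticle-list gene protodermal factor 1, summed to 23.0 to 50.2 and 35.8 to 51.4 FPKM in the root groups without and with phosphate, and to 365 to 387 and 376 to 471 FPKM in the frond groups without and with phosphate. Of these 12 genes, 1 was at 0 in all libraries. A list of 12 guard cell and stomatal genes summed to 13.8 to 20.3 and 18.9 to 25.3 FPKM in the root groups without and with phosphate, and to 79.4 to 126 and 87.8 to 97.1 FPKM in the frond groups without and with phosphate. The epidermal and stomatal lists therefore moved with every frond excess given below, and their part in those differences was not tested. In pooled tissue, fewer cells of a type and less RNA per cell cannot be told apart.

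Added up, the 74 genes not named by identifier reached 721 ± 60.2 FPKM in roots without phosphate and 731 ± 93.0 FPKM in control roots, against 2435 ± 168 FPKM in fronds without phosphate and 2233 ± 201 FPKM in control fronds (SD, n = 4 each). With the 4 genes named by identifier the frond sums were far larger, at 4231 ± 403 FPKM without phosphate and 3989 ± 301 FPKM in control medium, and the root sums were 727 ± 65.8 FPKM without phosphate and 736 ± 92.4 FPKM in control medium. Ketoacyl-CoA synthases summed to 221 ± 22.1 FPKM in roots without phosphate, against 1202 ± 138 FPKM in fronds without phosphate. GDSL esterases summed to 195 ± 22.4 FPKM in roots without phosphate, against 773 ± 66.1 FPKM in fronds without phosphate, and the 4 lipid-transfer proteins not named by identifier to 5.98 ± 3.25 FPKM, against 42.9 ± 8.15 FPKM. Glycerol-3-phosphate acyltransferases summed to 299 ± 34.9 FPKM in roots without phosphate, against 413 ± 43.7 FPKM in fronds without phosphate. In roots without phosphate, Sp15g00008 made up 47.3% of the ketoacyl-CoA synthase sum, and Sp08g00717 made up 42.2% of the GDSL esterase sum. Both models also carry a domain of another family, so these root sums need not be family levels. In fronds without phosphate the largest shares were 41.3% (Sp05g00075) and 32.2% (Sp08g01042).

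**Figure D1:**
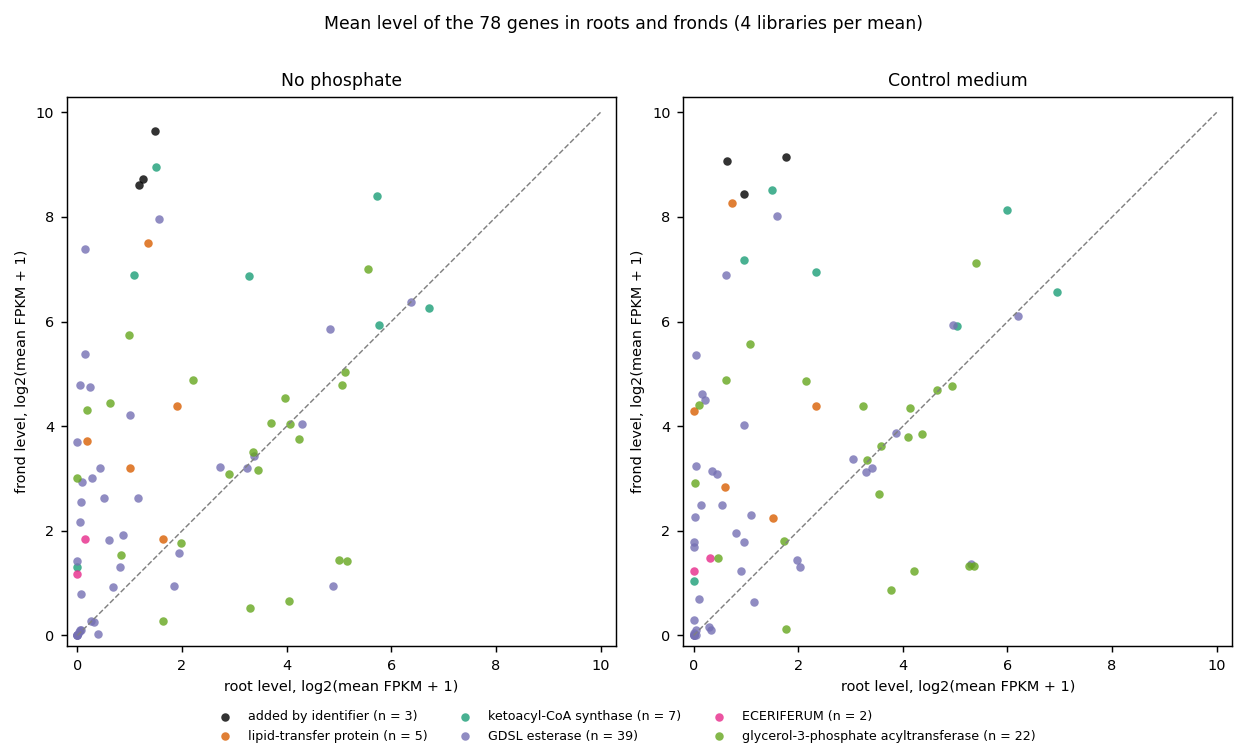
Mean level of each of the 78 genes in roots (horizontal axis) and fronds (vertical axis) as log2(mean FPKM + 1), without phosphate on the left and in control medium on the right. Points are genes coloured by class, each mean is over 4 libraries, and the dashed line marks equal levels. Most genes with a high frond level sit far above the line, and a small group of acyltransferases and 1 GDSL esterase sits far below it.

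Roots were first compared with fronds without phosphate. By limma, 10 of the 63 genes tested were higher in roots and 37 were lower, which is 15.9% and 58.7% of them. Among all 16598 genes tested, 67.6% were called in this comparison, 32.6% higher and 35.0% lower in roots. The median log2 difference was -1.14 over the 63 genes and -0.02 over all genes. With 5 genes that had no read in any of these root libraries placed at their bound of 3 reads over the group, the median of the 63 was -1.21. The genes were picked with such differences known, and some passed the filter on low levels through the fronds alone, so the shift is a description of the list.

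In control medium, the same 63 genes had 11 called higher and 37 lower in roots, where 59.8% of all genes were called, 28.8% higher and 31.0% lower. The 2 tissue comparisons take their means from separate libraries. Both came from the same fit over all libraries, with a shared spread per gene, so their calls are not independent. Of these 63 genes, 9 were called higher in roots both times, which is 90% of the 10 without phosphate and 81.8% of the 11 in control medium. Lower in roots both times were 35, which is 94.6% of the 37 in each. The same overlap was not counted over all genes, so these shares describe the list only. No gene was called in opposite directions.

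Wax precursor synthesis is described first. Of 7 ketoacyl-CoA synthase homologs, 5 were lower in roots than in fronds without phosphate, 1 was higher and 1 was not called. Over all genes tested, 35.0% were lower and 32.6% higher there. The enzyme joins malonyl units to a fatty acyl chain and sets the chain length that elongation reaches. The models are uneven in size, with coding lengths of 363 to 1794 bases, and whether each holds a whole gene was not tested.

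Sp05g00075 (chromosome 5, 311454 to 312038) is a homolog of Arabidopsis KCS10, known as FIDDLEHEAD and needed there to keep epidermal surfaces from fusing. It had 2.94, 3.40, 0.701 and 0.309 FPKM in roots without phosphate and 1.83, 2.72, 1.49 and 1.24 FPKM in control roots. In fronds it had 367, 613, 499 and 505 FPKM without phosphate and 363, 491, 230 and 366 FPKM in control medium. Every frond library was above every root library by a wide margin. On the log2 scale roots differed from fronds by -7.62 ± 0.34 (SE; limma adjusted p = 1.89e-11) without phosphate and by -6.99 ± 0.34 (adjusted p = 5.91e-11) in control medium.

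A second KCS10 homolog, Sp15g00008 (chromosome 15, 49482 to 56817), was the 1 family member higher in roots. It had 134, 83.8, 87.1 and 113 FPKM in roots without phosphate and 93.3, 126, 129 and 142 FPKM in control roots. Its frond values were 77, 63.4, 85.9 and 77.6 FPKM without phosphate and 88.0, 89.9, 94.4 and 102 FPKM in control medium. Roots and fronds overlapped in both media. The log2 difference of 0.44 ± 0.16 without phosphate passed narrowly (limma adjusted p = 0.0212), and it was 0.31 (adjusted p = 0.0812) without no-phosphate root library 5. Leaving out no-phosphate root library 8 or no-phosphate frond library 6 ended the call too. In control medium the log2 difference was 0.37 ± 0.16 (adjusted p = 0.0496), and that call ended in 11 of the 16 fits that left out 1 library. The model also carries a domain of unknown function, DUF1218, beside its family match.

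Both neighbours on chromosome 2 were low in roots. Sp02g00096 (chromosome 2, 428231 to 429691), a KCS12 homolog, had 0.662, 0.923, 2.24 and 0.680 FPKM in roots without phosphate, against 113, 97.0, 127 and 136 FPKM in fronds without phosphate. Its control values were 0.275, 0.837, 1.29 and 1.35 FPKM in roots, against 116, 155, 170 and 135 FPKM in fronds. The groups lay far apart in both media, with log2 differences of -5.86 ± 0.22 without phosphate (limma adjusted p = 3.41e-12) and -6.25 ± 0.22 in control medium (adjusted p = 1.54e-12). Sp02g00097 (chromosome 2, 431534 to 437200), a KCS19 homolog, had 11.3, 5.58, 4.44 and 13.4 FPKM in roots without phosphate and 6.01, 4.27, 3.08 and 2.84 FPKM in control roots. In fronds it averaged 115 ± 1.03 FPKM without phosphate and 123 ± 11.1 FPKM in control medium (SD, n = 4 each). It was thus readily detected in all root libraries, with a log2 difference between roots and fronds of -3.71 ± 0.25 without phosphate (limma adjusted p = 3.57e-09).

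Sp18g00295 (chromosome 18, 1648331 to 1651489) is a homolog of KCS6, also called CER6, the main synthase of stem wax in Arabidopsis. It had 57.8, 63.3, 50.8 and 34.8 FPKM in roots without phosphate and 43.5, 64.7, 70.8 and 72.5 FPKM in control roots. Fronds had 290, 406, 343 and 300 FPKM without phosphate and 324, 333, 176 and 280 FPKM in control medium. The tissues did not overlap, yet the gap was far smaller than for Sp05g00075, at -2.69 ± 0.22 on the log2 scale without phosphate (limma adjusted p = 3.13e-08) and -2.11 ± 0.22 in control medium (adjusted p = 6.15e-07).

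The KCS20 homolog Sp13g00643 (chromosome 13, 3227988 to 3231523) is related to an Arabidopsis enzyme of both leaf wax and root suberin. It averaged 53.1 ± 15.7 FPKM in roots without phosphate, against 59.8 ± 2.62 FPKM in fronds without phosphate (SD, n = 4 each), and was not called there (limma adjusted p = 0.278). In control medium it averaged 31.8 ± 4.24 FPKM in roots, against 59.7 ± 8.78 FPKM in fronds, and was called lower in roots (log2 -0.89 ± 0.17, adjusted p = 0.000274). The model carries a translation initiation factor domain too, and its reads cannot be divided between the parts. The last family member, the KCS7 homolog Sp01g00959, was named after its values were seen. It had no read in any root library and averaged 1.49 FPKM in fronds without phosphate and 1.07 FPKM in control fronds. It passed the filter on low levels through the fronds alone. Against a bound of 3 reads over the group, it was at least 17.5-fold higher in fronds than in roots without phosphate.

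**Figure D2:**
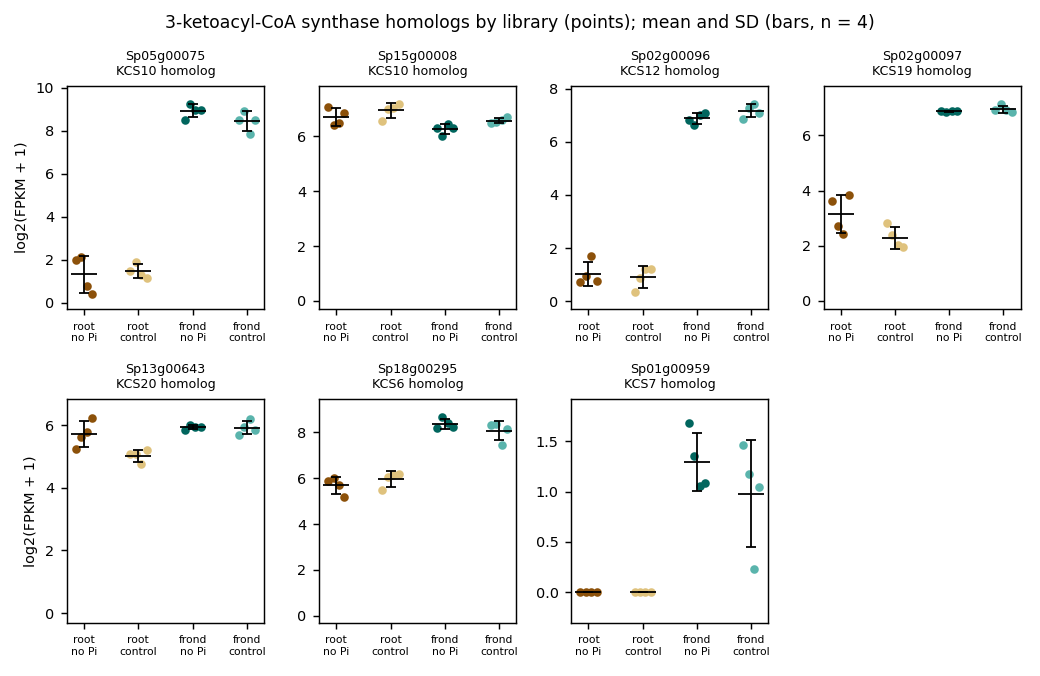
Level of the 7 ketoacyl-CoA synthase homologs in each library as log2(FPKM + 1), with 1 panel per gene and the groups from left to right being roots and then fronds, each without phosphate and in control medium. Points are libraries, and bars are the mean and SD of 4 libraries. In 5 panels the frond points lie clear above the root points. The root and frond points of Sp15g00008 overlap in both media, and those of Sp13g00643 overlap without phosphate only.

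ECERIFERUM 2 helps ketoacyl-CoA synthases reach the longest wax chains in Arabidopsis. Its homolog Sp07g00327 (chromosome 7, 2103918 to 2104862) averaged 0.112 ± 0.0814 FPKM in roots without phosphate, against 2.58 ± 0.709 FPKM in fronds without phosphate (SD, n = 4 each). The frond libraries were all above the root libraries, and the log2 difference was -1.67 ± 0.17 (limma adjusted p = 2.99e-07). The other homolog, Sp07g00326, lies 197 bases upstream on the same strand. It had no read in any root library and averaged 1.27 FPKM in fronds without phosphate. Both genes passed the filter on low levels through the fronds alone, so their calls describe genes kept for their frond level. Their coding lengths add up to 1395 bases, and whether the pair is 1 gene was not tested.

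Export of the lipids is carried by membrane transporters and small wall proteins. The ABCG11 homolog Sp02g00487 (chromosome 2, 2617287 to 2619526) is related to an Arabidopsis pump of wax and cutin precursors. It had 1.73, 2.15, 0.487 and 0.644 FPKM in roots without phosphate, against 252, 335, 485 and 490 FPKM in fronds without phosphate. Every frond value lay far above every root value. Its control values averaged 0.945 ± 0.568 FPKM in roots and 348 ± 79.4 FPKM in fronds (SD, n = 4 each).

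The gene with the highest mean level of the 78 in fronds was the protodermal factor 1 homolog Sp08g00486 (chromosome 8, 4045880 to 4047543), a proline-rich protein of the epidermal layer in Arabidopsis. It had 4.50, 0.646, 0.498 and 1.48 FPKM in roots without phosphate, against 809, 715, 838 and 854 FPKM in fronds without phosphate. The tissues lay far apart. Control means were 2.41 ± 2.20 FPKM in roots and 566 ± 52.5 FPKM in fronds (SD, n = 4 each).

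Sp07g00653 (chromosome 7, 3868017 to 3869388) has no homolog in the table and is listed by a lipid-transfer domain. Its levels were 4.45, 0.335, 0.323 and 0.427 FPKM in roots without phosphate, against 343, 436, 463 and 443 FPKM in fronds without phosphate. No-phosphate root library 5 stood above the other 3 root libraries of its group, and all 4 were far below the fronds. Control means were 0.548 ± 0.695 FPKM in roots and 534 ± 69.2 FPKM in fronds (SD, n = 4 each).

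Lipid-transfer proteins are small secreted proteins with a pocket that holds a fatty acyl chain. Of 4 homologs tested, 3 were lower in roots than in fronds both without phosphate and in control medium, and 1 was not called in either. Over all genes tested, 35.0% were lower without phosphate and 31.0% in control medium. The family's summed level was mostly 1 gene, Sp10g00918 (chromosome 10, 6923109 to 6923489), which made up 80.8% of it in fronds without phosphate and 86.4% in control fronds. It had 6.21 FPKM in no-phosphate root library 5 and no read in the other 3 libraries of that group, against 105, 158, 221 and 237 FPKM in fronds without phosphate. Control values were 2.67 FPKM in root library 3 and 0 in the other 3, against 224, 339, 360 and 307 FPKM in fronds.

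The neighbour Sp10g00919, named after its values were seen, averaged 2.10 FPKM in roots without phosphate, against 2.60 FPKM in fronds without phosphate, and was not called. On chromosome 5, Sp05g00584 (3150553 to 3150954), a homolog of lipid-transfer protein 2P, had 0.535 FPKM in no-phosphate root library 5 and 0 in the other 7 root libraries. Fronds had 10.1, 13.9, 14.2 and 10.6 FPKM without phosphate and 9.84, 15.5, 33.9 and 14.8 FPKM in control medium. Control frond library 3 was the high one, and the tissues lay well apart (log2 -3.55 ± 0.27 without phosphate, limma adjusted p = 1.13e-08). Sp05g00584 passed the filter on low levels through the fronds alone.

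Sp05g00581 (chromosome 5, 3096843 to 3097247), a lipid-transfer protein 2 homolog, was expressed in roots at 3.72, 4.20, 1.01 and 2.01 FPKM without phosphate and 2.31, 4.53, 2.51 and 6.91 FPKM in control medium. Fronds had 12.5, 20.3, 25.0 and 21.8 FPKM without phosphate and 15.0, 19.0, 27.6 and 17.7 FPKM in control medium. Its log2 difference between roots and fronds without phosphate was -2.54 ± 0.33 (limma adjusted p = 4.14e-06). Sp02g00982, a lipid-transfer protein 14 homolog, averaged 1.01 ± 2.02 FPKM in roots without phosphate, against 8.22 ± 0.868 FPKM in fronds without phosphate (SD, n = 4 each). All of that root signal was 4.03 FPKM in no-phosphate root library 6, still under the lowest frond library at 7.15 FPKM.

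GDSL esterases are named after a short motif at their active site. The family includes the cutin synthase of tomato and many enzymes with no known substrate. Of 39 homologs, 28 were tested, and without phosphate 19 of them were lower in roots, 2 were higher and 7 were not called. In control medium 18 were lower, 3 were higher and 7 were not called. Over all genes tested, 35.0% were lower and 32.6% higher without phosphate, and 31.0% and 28.8% in control medium. The counts of higher genes depended on the scaling, at 5 without phosphate and 7 in control medium with libraries rescaled to equal total FPKM, and at 4 and 7 with voom on recovered reads, while 18 were lower each time. Those that passed the filter on low levels include genes that passed through the fronds alone, so these counts say nothing of the 11 genes left out.

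The LTL1 homolog Sp14g00120 is related to an Arabidopsis lipase tied to lithium tolerance. It had 0.394 FPKM in no-phosphate root library 5 and no read in the other 3, against 155, 136, 186 and 187 FPKM in fronds without phosphate. In control medium it had 2.13 FPKM in root library 3 and no read in the other 3, against 158, 113, 95.2 and 101 FPKM in fronds. The log2 difference was -7.25 ± 0.30 without phosphate (limma adjusted p = 8.50e-12) and -6.44 ± 0.30 in control medium (adjusted p = 4.00e-11). Sp14g00120 passed the filter on low levels through the fronds alone.

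The highest GDSL esterase was Sp08g01042 (chromosome 8, 7037450 to 7039799), a homolog of the anther protein APG. It had 4.08, 1.51, 0.886 and 1.25 FPKM in roots without phosphate and 2.23, 1.36, 3.36 and 1.15 FPKM in control roots. Fronds had 261, 219, 275 and 241 FPKM without phosphate and 308, 273, 219 and 229 FPKM in control medium. Its log2 difference without phosphate was -6.52 ± 0.26 (limma adjusted p = 6.36e-12). The adjacent APG homolog Sp08g01043, named after its values were seen, averaged 8.51 FPKM in roots without phosphate, against 8.21 FPKM in fronds without phosphate. Side by side on 1 strand, the pair of models thus had a steep and a flat pattern. The coding length of Sp08g01043 is 5277 bases, against 1080 for Sp08g01042. Whether the longer model holds 1 gene only was not tested.

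Sp05g00330, a homolog of Arabidopsis At5g45960, averaged 0.104 FPKM in roots without phosphate, against 42.4, 31.7, 44.3 and 44.0 FPKM in fronds without phosphate. Its log2 difference of -5.24 ± 0.15 had the smallest adjusted p of the 63 genes (limma, 1.51e-13). Reads were found in 1 library of each root group only. Sp05g00330 passed the filter on low levels through the fronds alone, so its rank describes a gene kept for its frond level. Sp14g00418, a homolog of the extracellular lipase EXL1, was seen in 1 root library without phosphate at 0.159 FPKM and in 1 control root library at 0.450 FPKM. Its frond levels were 22.4, 25.1, 30.2 and 28.2 FPKM without phosphate and 25.9, 26.2, 21.2 and 20.4 FPKM in control medium. The log2 difference without phosphate was -4.72 ± 0.16 (limma adjusted p = 5.61e-13). Sp14g00418 likewise passed the filter through the fronds alone.

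A single GDSL esterase was far higher in roots. Sp03g01044, a homolog of Arabidopsis At1g74460, had 36.1, 35.8, 21.7 and 20.7 FPKM in roots without phosphate and 22.1, 41.5, 42.4 and 47.8 FPKM in control roots. In fronds it had 0.580, 0.558, 1.23 and 1.31 FPKM without phosphate and 0.424, 2.05, 2.36 and 1.53 FPKM in control medium. The ratio of means, roots over fronds, was 31.1 without phosphate and 24.2 in control medium. The log2 difference was 3.92 ± 0.29 (limma adjusted p = 8.99e-09) and 3.94 ± 0.29 (adjusted p = 1.01e-08) in these media. The other GDSL esterase higher in roots without phosphate, Sp04g01060, was named after its values were seen and differed by 0.90 on the log2 scale (adjusted p = 0.000382).

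All 22 glycerol-3-phosphate acyltransferase homologs were tested, and without phosphate 7 were higher in roots, 8 were lower and 7 were not called. These are 31.8% and 36.4% of the class, close to the 32.6% and 35.0% of all genes. When libraries were rescaled to equal total FPKM, the counts were 9 higher and 6 lower. The 16 homologs that are not 1-acyl enzymes gave 6 higher, 6 lower and 4 not called. The 6 homologs of 1-acyl-sn-glycerol-3-phosphate acyltransferases, which make phosphatidic acid for membrane lipids, gave 1 higher, 2 lower and 3 not called.

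On the root side stood homologs of GPAT5, which makes suberin in Arabidopsis roots and seed coats, and of its close relative GPAT7. Sp06g00064 (chromosome 6, 281610 to 282044) had 51.7, 41.6, 20.7 and 24.1 FPKM in roots without phosphate and 19.4, 52.9, 44.4 and 44.5 FPKM in control roots. Fronds had 0.778, 0.599, 2.09 and 3.25 FPKM without phosphate and 0.852, 2.44, 2.34 and 0.343 FPKM in control medium. All 8 root libraries were above all 8 frond libraries. Its log2 difference was 3.75 ± 0.41 without phosphate (limma adjusted p = 6.23e-07) and 4.07 ± 0.41 in control medium (adjusted p = 3.03e-07).

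Its neighbour Sp06g00065 (chromosome 6, 282085 to 283011) starts 40 bases further on, and the coding lengths of the pair add up to 1362 bases. It averaged 31.0 ± 11.7 FPKM in roots without phosphate, against 1.72 ± 0.320 FPKM in fronds without phosphate (SD, n = 4 each; log2 3.49 ± 0.26, limma adjusted p = 8.96e-09). A second pair on the same chromosome, Sp06g01264 (8047480 to 8048559) and Sp06g01265 (8048630 to 8050474), is 70 bases apart. Sp06g01264 had 18.3, 20.2, 11.8 and 11.5 FPKM in roots without phosphate, against 0.430, 0.331, 0.661 and 0.900 FPKM in fronds without phosphate. For Sp06g01265, the GPAT7 homolog, the values were 13.0, 11.7, 5.65 and 4.83 FPKM in roots without phosphate, against 0.411, 0.317, 0.474 and 0.574 FPKM in fronds without phosphate. Both were higher in roots, by 3.35 ± 0.26 (limma adjusted p = 1.22e-08) and 2.66 ± 0.31 (adjusted p = 1.42e-06) on the log2 scale. Whether each pair is 1 gene was not tested.

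The 5 genes higher in roots by more than 1 on the log2 scale and named by the rule, namely these 4 and the GDSL esterase Sp03g01044, varied together among root libraries. In all 5, no-phosphate root libraries 5 and 6 were above libraries 7 and 8 of the group. In 4 of 5, root library 1 was the lowest of the control group. The Casparian strip homolog Sp04g00111 had the same order in those libraries, with 41.4 and 54.6 FPKM in libraries 5 and 6, 26.6 and 22.4 FPKM in libraries 7 and 8, and 35.1 FPKM as the lowest control root value. Its part in the spread of the 5 genes was not tested. Of the 5 genes, 4 form close pairs, so they may be fewer loci. The RAM2 homolog Sp01g00283, named after its values were seen, was also higher in roots by more than 1. It did not keep the order, at 3.14, 1.93, 2.19 and 1.13 FPKM in no-phosphate root libraries 5 to 8. Root library 1 was its lowest control root library, at 1.02 FPKM.

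On the frond side stood homologs of GPAT1 and RAM2. RAM2 is needed in Medicago roots to feed lipids to mycorrhizal fungi and makes cutin monomers. Sp06g00701 (chromosome 6, 4906519 to 4908815), a GPAT1 homolog, had 1.91, 0.631, 1.42 and 0 FPKM in roots without phosphate, against 56.6, 45.9, 56.4 and 51.2 FPKM in fronds without phosphate (log2 -4.86 ± 0.26, limma adjusted p = 1.90e-10). Its neighbour Sp06g00700, 40 bases away, averaged 0.140 FPKM in roots without phosphate, against 18.8 ± 2.90 FPKM in fronds without phosphate (log2 -4.12 ± 0.15, adjusted p = 2.09e-12). In the same stretch of chromosome 6, the GPAT2 homolog Sp06g00698 had no read in roots without phosphate, against 7.07 ± 2.42 FPKM in fronds without phosphate. That made it at least 146-fold higher in those fronds, at a bound of 3 reads over the root group. Both Sp06g00700 and Sp06g00698 passed the filter on low levels through the fronds alone.

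The RAM2 homolog Sp13g00707 had 0.560, 0.370, 0.203 and 1.01 FPKM in roots without phosphate and 0.597, 0.455, 0.324 and 0.771 FPKM in control roots. Fronds had 19.8, 15.7, 23.6 and 23.4 FPKM without phosphate and 27.0, 28.8, 31.3 and 27.4 FPKM in control medium. The tissues lay far apart (log2 -3.83 ± 0.17 without phosphate, limma adjusted p = 1.92e-11). The homolog name did not fix the tissue. The GPAT5 homolog Sp01g01694, named after its values were seen, averaged 3.64 FPKM in roots without phosphate, against 28.5 FPKM in fronds without phosphate (log2 -2.68, adjusted p = 2.45e-11). The RAM2 homolog Sp01g00283, likewise, averaged 2.10 FPKM in roots without phosphate, against 0.204 FPKM in fronds without phosphate (log2 1.33, adjusted p = 0.000109).

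**Figure D3:**
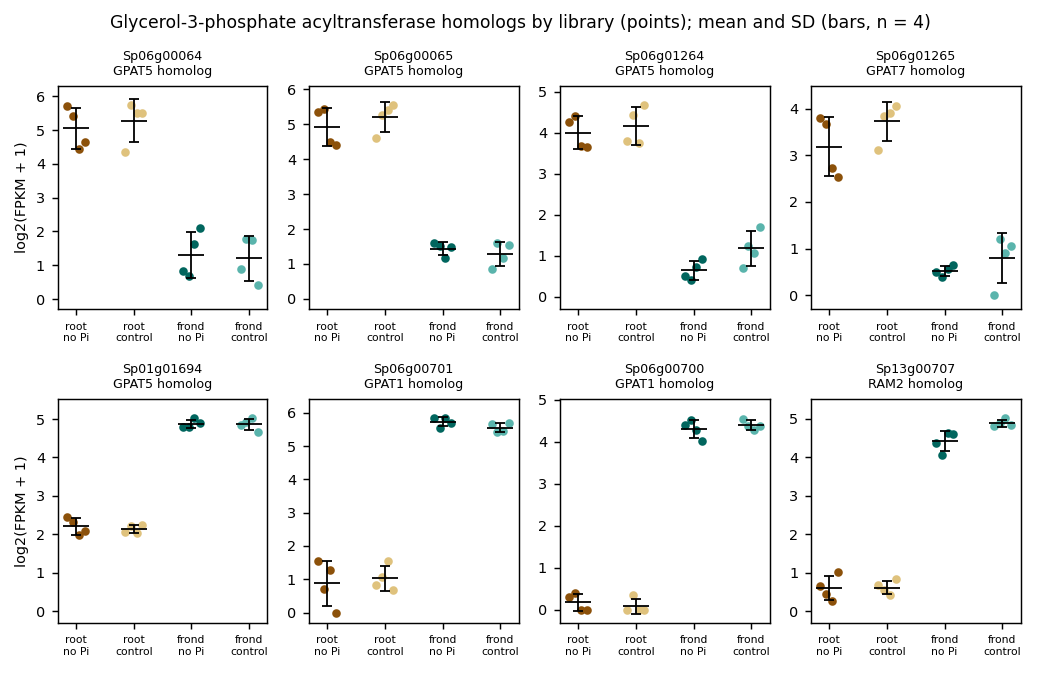
Level of 8 glycerol-3-phosphate acyltransferase homologs in each library as log2(FPKM + 1), with 1 panel per gene and the groups from left to right being roots and then fronds, each without phosphate and in control medium. Points are libraries, and bars are the mean and SD of 4 libraries. In the upper 4 panels the root points are high and the frond points low, and in the lower 4 panels, which include the GPAT5 homolog Sp01g01694, the order is the other way round.

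The plastid enzyme homolog Sp14g00739, which starts the plastid route of membrane lipids, had the highest mean of the class. Its levels were 43.2, 46.0, 57.4 and 38.2 FPKM in roots without phosphate and 35.2, 39.1, 51.4 and 38.3 FPKM in control roots. Fronds had 71.6, 130, 162 and 143 FPKM without phosphate and 137, 148, 124 and 141 FPKM in control medium. The tissues did not overlap, and no-phosphate frond library 5 was the lowest of the fronds (log2 -1.39 ± 0.20 without phosphate, limma adjusted p = 1.70e-05). The GPAT9 homolog Sp17g00380, named after its values were seen, is related to the enzyme that starts lipid synthesis in the endoplasmic reticulum. It averaged 32.4 FPKM in roots without phosphate, against 26.6 FPKM in fronds without phosphate (log2 0.27, adjusted p = 0.0288).

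Many of the 78 genes lie near each other. On the 17 of 20 chromosomes that hold members, 15 groups of 2 or more lay within 3 gene ranks of each other, with 35 genes in all. Without phosphate all genes of 5 groups were called lower in roots, those of 2 groups were called higher, and no group held calls in both directions. In 3 groups a called gene stood beside one that was tested and not called. In 6 sets with 13 genes, models on 1 strand lay less than 1000 bases apart, which would leave 71 loci if each set were 1 gene. Both groups called higher consist wholly of such close models, as does the ECERIFERUM 2 pair among those called lower. If each is 1 gene, its calls had to agree. Agreement among neighbouring genes at large was not counted. Another family's Pfam domain was found in 6 of the 78 models, Sp15g00008, Sp13g00643 and Sp17g00019 among them, and their reads cannot be divided between the parts.

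The genes with a steep frond excess were examined in each root library. There were 18 with at least 5 FPKM in every frond library and a mean at least 20 times that of roots. Their median level, as a share of the frond mean, was 1.13%, 0.590%, 0.102% and 0.0359% in no-phosphate root libraries 5 to 8, and 0.373%, 0.245%, 0.616% and 0.0663% in control root libraries 1 to 4. Reads were found for 16, 12, 11 and 9 of the 18 genes in the libraries without phosphate and for 13, 10, 13 and 10 in control libraries. By this median, library 5 was the highest of its group and library 3 of its own. The highest single gene reached 3.92% in library 3, less than in any other control root library, and 8.94% in library 1. The source of this trace was not tested. The tissue counts hold without no-phosphate root library 5 and control root library 3, at 9 higher and 37 lower without phosphate.

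**Figure D4:**
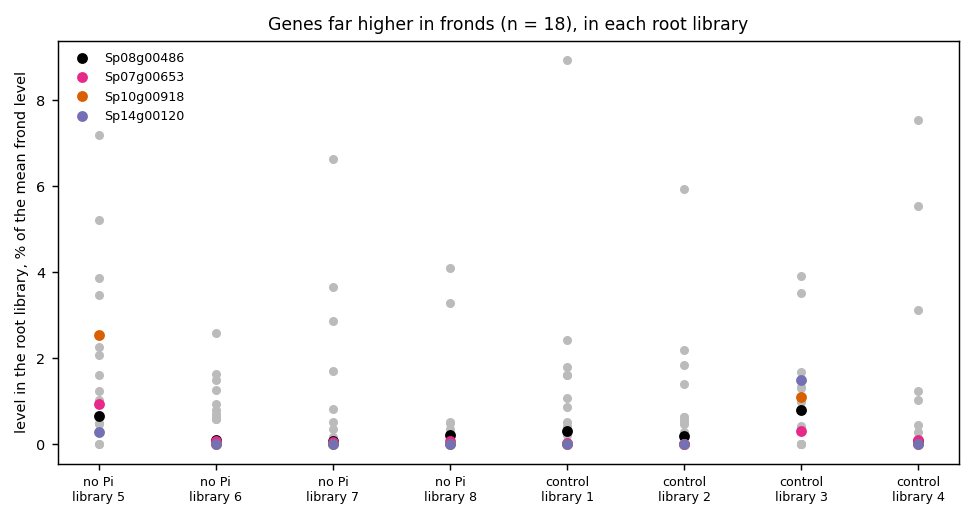
Level of the 18 genes far higher in fronds in each of the 8 root libraries, as a percentage of the gene's mean level over the frond libraries. Each point is a gene in 1 library, with 4 genes coloured and the rest grey. The coloured genes are highest in no-phosphate library 5 and control library 3, and some grey genes peak in other libraries. Most points of every library lie under 2% of the frond level.

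The second question was which of these genes differed 1 day after phosphate was withdrawn. In fronds, 1 of the 63 genes open to testing (1.59%) was called higher without phosphate and none lower, where 4.41% of all genes were called (2.11% higher and 2.30% lower). At an unadjusted p under 0.05 there were 8 of the 63, where 20.7% of all genes were under it. Over the 63 genes the log2 differences ran from -0.53 to 0.91, with a median of 0.05. The share of genes called was thus no larger than that of all genes.

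The gene called was Sp17g00308, a homolog of a coconut 1-acyl-sn-glycerol-3-phosphate acyltransferase, an enzyme of membrane and storage lipid synthesis rather than of the cuticle. It had 26.4, 18.4, 25.0 and 19.3 FPKM in fronds without phosphate and 10.1, 11.4, 13.3 and 10.5 FPKM in control fronds. All 4 libraries without phosphate were above all 4 control libraries. The log2 difference was 0.91 ± 0.17 (limma adjusted p = 0.0119), and it was 0.82 (adjusted p = 0.0521) without no-phosphate frond library 5. In roots the same gene had 9.42, 17.7, 18.2 and 13.6 FPKM without phosphate and 9.93, 11.2, 11.1 and 11.4 FPKM in control medium, where no-phosphate library 5 lay below all 4 control libraries and the other 3 above them.

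No ketoacyl-CoA synthase, GDSL esterase, ECERIFERUM or lipid-transfer gene open to testing was called in fronds. Sp05g00075, the KCS10 homolog, averaged 496 ± 101 FPKM in fronds without phosphate and 363 ± 107 FPKM in control fronds (SD, n = 4 each). Sp08g00486, protodermal factor 1, averaged 804 ± 62.4 FPKM in fronds without phosphate and 566 ± 52.5 FPKM in control fronds, with no overlap and no test. The lipid-transfer protein Sp10g00918 averaged 180 ± 60.7 FPKM in fronds without phosphate and 308 ± 59.6 FPKM in control fronds, overlapping and also untested. For the RAM2 homolog Sp13g00707 the 4 fronds without phosphate were all below the 4 control fronds, and the log2 difference of -0.47 ± 0.17 missed the threshold (limma adjusted p = 0.129).

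In roots, limma called none of the 63 genes, where 0.422% of all genes were called. Under an unadjusted p of 0.05 there were 6 of the 63, where 16.3% of all genes were under it, and voom on recovered reads called 0 as well. The smallest adjusted p belonged to the KCS20 homolog Sp13g00643. It had 36.6, 48.3, 53.4 and 74.2 FPKM in roots without phosphate and 32.9, 32.4, 25.8 and 35.9 FPKM in control roots. Every library without phosphate was above every control library, and the log2 difference was 0.69 ± 0.17 (adjusted p = 0.0733). Without no-phosphate root library 5, the lowest of its group for this gene, it was 0.85 (adjusted p = 0.00788), which is a call. The share of all genes called in that fit is not given here.

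The KCS19 homolog Sp02g00097 averaged 8.68 ± 4.35 FPKM in roots without phosphate and 4.05 ± 1.45 FPKM in control roots (SD, n = 4 each). The groups overlapped, and the difference missed the threshold (log2 0.86 ± 0.25, limma adjusted p = 0.113). The PLS1 homolog Sp04g00693, a 1-acyl enzyme, had 24.7, 38.1, 35.8 and 35.4 FPKM in roots without phosphate and 26.2, 23.4, 20.8 and 25.9 FPKM in control roots. Library 5 alone lay within the control range. The log2 difference was 0.45 ± 0.13 (limma adjusted p = 0.102), and without library 5 it was 0.58 (adjusted p = 0.00793). The suberin-type genes were not called either, Sp06g00064 averaging 34.5 ± 14.6 FPKM in roots without phosphate and 40.3 ± 14.5 FPKM in control roots.

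**Figure D5:**
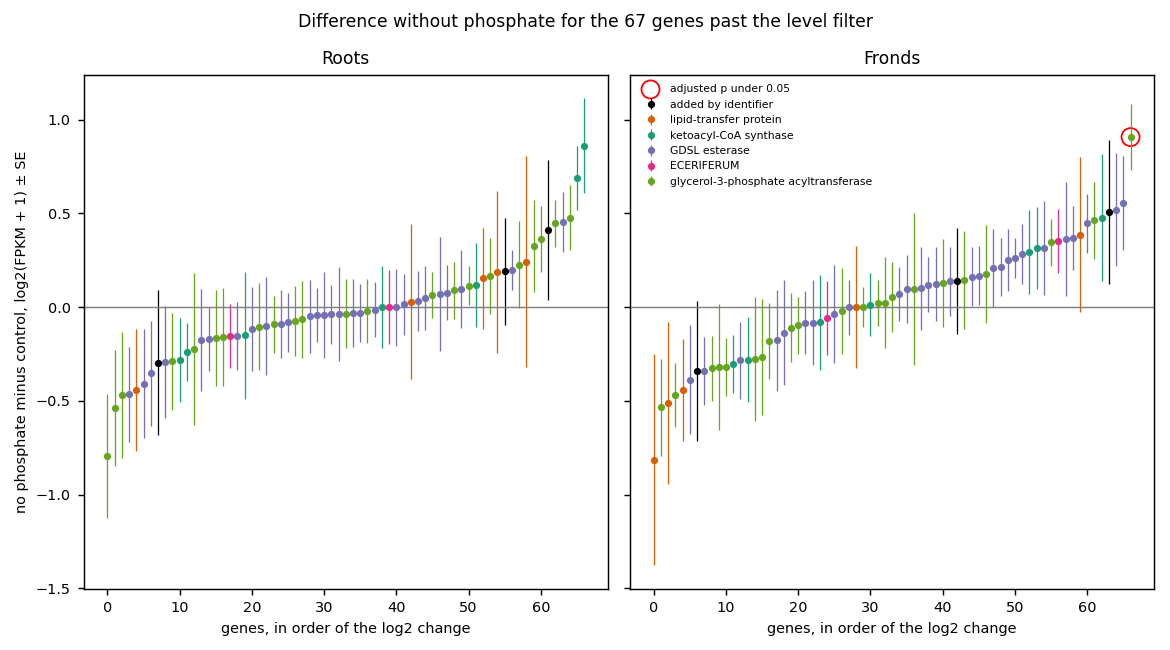
Difference without phosphate for the 67 genes past the level filter, 63 of them open to testing, as log2(FPKM + 1) without phosphate minus control, in roots on the left and fronds on the right. Points are genes in order of their difference, coloured by class, and bars are the SE of the fit over 16 libraries. The red ring marks Sp17g00308 in fronds, at 0.91, the only gene of those 63 that was called.

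The difference between the tissues in their phosphate response was tested as an interaction. By limma, 0 of the 63 genes were called, and 0 of all 16598 genes (0%). At an unadjusted p under 0.05 there were 6 of the 63, where 11.1% of all genes were under it, and voom called 0. The smallest adjusted p was that of the RAM2 homolog Sp17g00019, at 0.317. It averaged 12.1 ± 2.11 FPKM in roots without phosphate and 8.47 ± 2.26 FPKM in control roots, and 15.7 ± 3.03 FPKM in fronds without phosphate and 19.8 ± 2.67 FPKM in control fronds (SD, n = 4 each). The interaction was 0.80 ± 0.24 on the log2 scale. Its model also carries a ribosomal RNA methyltransferase domain.

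A wider list of 81 genes, none of them among the 78, was matched by name to other steps of fatty acid, wax, cutin and suberin synthesis and compared in the same fit. The match also took in genes of other routes, such as glycolipid transfer proteins and peroxisomal reductases of fatty acid breakdown. No naming rule was set for this list, so every gene of it given below was named after its values were seen. Of 74 tested, 19 (25.7%) were higher in roots and 50 (67.6%) lower without phosphate, where 32.6% and 35.0% of all genes were. In control medium 18 (24.3%) were higher and 49 (66.2%) lower, where 28.8% and 31.0% of all genes were. Some of these genes passed the filter on low levels through the fronds alone, so the counts describe the list. High in fronds was Sp11g00864, a homolog of GL1-1 of wax synthesis, with 0.485 ± 0.594 FPKM in roots without phosphate, against 277 ± 91.0 FPKM in fronds without phosphate. Other GL1 homologs differed among themselves. Without phosphate, Sp06g00686 averaged 99.4 FPKM in roots and 91.7 FPKM in fronds, and Sp03g01011 7.46 and 2.13 FPKM. Sp02g00113 had no read in those roots and 18.5 FPKM in those fronds. The WIN1 homolog Sp08g01302, a regulator that switches on cutin and wax genes in Arabidopsis, had no read in any root library and 8.70 ± 2.03 FPKM in fronds without phosphate. Very-long-chain 3-oxoacyl-CoA reductase works beside the synthases in elongation. All 9 of its homologs in a cluster on chromosome 10 were lower in roots, with log2 differences of -6.30 to -1.95. All of them but Sp10g00093 and Sp10g00096 passed the filter through the fronds alone, as did Sp11g00864, Sp02g00113 and Sp08g01302.

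Among homologs of suberin enzymes known from Arabidopsis, some were high in roots and others of the same name were not. The cytochrome P450 86B1 homolog Sp02g00542, a hydroxylase of very long chains, averaged 107 ± 41.8 FPKM in roots without phosphate, against 4.20 ± 2.07 FPKM in fronds without phosphate (SD, n = 4 each; log2 4.38 ± 0.36, limma adjusted p = 2.51e-08). The feruloyl transferase homolog Sp04g00821, which adds ferulate to suberin, averaged 174 ± 74.2 FPKM in roots without phosphate, against 10.2 ± 3.17 FPKM in fronds without phosphate (log2 3.89 ± 0.35, adjusted p = 8.12e-08). Its namesake Sp01g00343 went the other way, with 4.09 ± 0.155 FPKM in roots without phosphate, against 31.2 ± 4.39 FPKM in fronds without phosphate (log2 -2.65 ± 0.19, limma adjusted p = 4.25e-09). A second P450 86B1 homolog, Sp16g00412, had no read in any root library and 0.445 ± 0.315 FPKM in fronds without phosphate. All genes named in this paragraph, the root-high ones included, were named after their values were seen.

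For phosphate, 1 gene of the wider list was called higher in fronds and 3 lower, which is 5.41% of the 74, where 4.41% of all genes were called. In roots none was, where 0.422% of all genes were. The higher one was the wax ester synthase homolog Sp12g00152, with 46.9 ± 1.10 FPKM in fronds without phosphate and 26.6 ± 2.37 FPKM in control fronds (log2 0.80 ± 0.13, adjusted p = 0.00682). The lower ones were a neighbouring pair of peroxisomal 2,4-dienoyl-CoA reductase homologs, Sp11g00416 (log2 -0.78 ± 0.20, limma adjusted p = 0.0345) and Sp11g00417 (log2 -0.67 ± 0.15, adjusted p = 0.0192), and the EARLI 1 lipid-transfer homolog Sp02g01210, with 5.67 ± 2.59 FPKM in fronds without phosphate and 16.7 ± 6.51 FPKM in control fronds (log2 -1.42 ± 0.29, adjusted p = 0.0161).

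Patterns most like those of the highest genes in each tissue direction were looked up among 12438 genes by Spearman correlation over the 16 libraries, points that share the contrast of the tissues. Sp05g00075, highest in fronds among the ketoacyl-CoA synthases, was closest to the receptor kinase TMK1 homolog Sp04g00252 (0.959). Sp15g00008, higher in roots, was closest to Sp08g00045, a homolog of a ribosomal L18a-like protein (0.95). Next to Sp05g00075 came Sp05g00369 (0.95) and Sp08g00898 (0.95), homologs of a membrane protein and of a LysM receptor kinase.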

How the data were processed

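Per the labels' protocols, RNA of 16 pools gave paired reads of 150 bp. HISAT2 2.0.5 and featureCounts 1.5.0-p3 are named in the submitters' processing notes. For settings, genome build and strand the sources used here give nothing, and positions are printed as the table has them. Per the file headers the authors deposited FPKM. Each gene has a length, a position, a homolog and Pfam domains. Column headers name tissue, treatment and a number, from 1 to 4 (control) or from 5 to 8 (no phosphate). These do not name labelled replicates, so libraries carry their group and column number. Of all lengths, 98.4% were multiples of 3, and they are called coding lengths. A table line emptied for this work (1) was not used.

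In every library 100% of FPKM times length were whole multiples of 1 step (tolerance 0.001), which gives whole reads. The library size implied by the step was 0.886 to 1.14 times their sum, so a scaling between libraries that the sources do not describe is in the values. Reads give counting precision only. Values were taken to log2(FPKM + 1), genes averaging 0.5 FPKM or more were kept, and a mean per group was fitted over the 16 libraries with limma 3.58.1 in R 4.3.3 (trended, robust prior, statmod 1.5.0), leaving 12 residual degrees of freedom. This scale understates changes of low genes. Two-sided p-values were adjusted over all genes of a contrast (Benjamini-Hochberg). The unit being FPKM, a planned count-model test was replaced by limma-voom on the recovered reads, chosen after seeing the data. The fit was tested on simulated data.

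The members, the wider list, the markers and the tests were chosen with earlier results of these data known. A test of the genes named by identifier, planned for root minus frond without phosphate, was dropped because the values that chose them are not stated. Genes named were those picked by identifier, up to 4 called members per class and direction averaging 5 FPKM or more in the higher group, for root minus frond without phosphate, the highest of each class, and those with the smallest adjusted p for phosphate and interaction. A gene outside this rule is said to be named after its values were seen.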

Additional observations from a re-analysis of the deposited data

Results flagged for a closer look

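Within groups of 4 libraries, a highest or lowest library was set apart by Dixon's criterion on the log2(FPKM + 1) scale in 15 of 122 checks over 31 named genes, where chance gives about 1 in 20. That rate does not hold for 12 of the 15, where the other 3 libraries were at 0 and any read is set apart. Of all 15, 9 concern no-phosphate root library 5 or control root library 3 and a gene high in fronds. In no-phosphate root library 5, Sp07g00653 had 4.45 FPKM, against 0.323 to 0.427 FPKM in the other 3 libraries. Sp10g00918 had 6.21 FPKM, Sp14g00120 had 0.394 FPKM, Sp05g00330 had 0.414 FPKM and Sp05g00584 had 0.535 FPKM in that library, and all 4 genes were at 0 in the other 3.

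In control root library 3, Sp10g00918 had 2.67 FPKM, Sp14g00120 had 2.13 FPKM, Sp05g00330 had 0.140 FPKM and Sp06g00698 had 0.0979 FPKM, with 0 in the other 3 control root libraries. Root libraries with a lone signal also were no-phosphate root library 6, at 0.159 FPKM for Sp14g00418 and 4.03 FPKM for Sp02g00982, control root library 1, at 0.450 FPKM for Sp14g00418, and control root library 2, at 0.274 FPKM for Sp06g00700. The other 3 libraries of each group were at 0. In fronds, no-phosphate library 6 was the lowest for Sp02g00097, at 114 FPKM against 115.861 to 116.122 FPKM, and for Sp05g00330, at 31.7 FPKM against 42.4 to 44.3 FPKM.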

How the results depend on the processing

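Roots and fronds of a flask were separated, yet the column numbers do not name the labelled replicates and did not pair the libraries: deviations of same-numbered root and frond libraries correlated at -0.116 to 0.147, over 0.1 in 2 of 8 pairs, with the own number highest in 2. A replicate block by column number, chosen after seeing the data, gave 45 calls without phosphate, 46 in control medium and 0 for the interaction. For phosphate no such block was possible, since treatments share no number. The planned count-model test on recovered reads was not run on FPKM. The tissue counts over all 63 genes held within 1.5 times in all settings run. By class, the exceptions were the GDSL esterases higher in roots (rescaled FPKM and voom) and the 1 ketoacyl-CoA synthase higher in roots, Sp15g00008, which lost its call in control medium, beside the fits that left out 1 library, with a pseudocount of 0.1 and with no filter, and in both media without the 2 root libraries named below. Without phosphate 45 to 49 of the genes tested were called in the other settings and 43 to 48 when leaving out each library, and in control medium 46 to 53 and 45 to 48. Rescaling FPKM to the same sum moved the median of all genes by 0.25 on the log2 scale in both tissue comparisons, with 15 higher and 34 lower in roots without phosphate and 16 higher and 37 lower in control medium. No called direction turned round.

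For phosphate in fronds (1 call, higher), the count was 3 with the 8 frond libraries only (2 higher, 1 lower), 2 with voom (1 lower), 2 without no-phosphate root library 5 and control root library 3 (2 higher), and 0 to 2 when leaving out each library (0 without no-phosphate frond library 5, 2 without no-phosphate root library 5 or control frond library 3). For phosphate in roots (0 calls), it was 2 without the same 2 root libraries, all higher, and 0 to 3 when leaving out each library, 3 without no-phosphate root library 5. The wider list had 4 calls in fronds and 2 with a pseudocount of 0.1. Where more genes were called, the share of all genes called in the same fit is not given, and the cause was not tested. Of the values of single named genes under these settings, 1145 kept their side of the threshold, 19 lost it, of which 18 were those of Sp15g00008, and 4 gained it.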
